A study of Homo sapiens with 4 samples.

Results

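Cytosolic ribosomal protein genes encode the proteins of the 40S and 60S ribosomal subunits. The genes described here are those whose symbol begins with RPL or RPS followed by a number, plus RPLP0, RPLP1, RPLP2 and RPSA, without the RPS6K kinase genes, pseudogenes, antisense transcripts and readthrough transcripts. That rule gave 88 of the 22841 gene symbols in the tables. They comprise 46 genes of the large subunit, 31 genes of the small subunit and 10 paralogs of main members. The remaining gene, RPS19BP1, encodes a protein that binds the small subunit protein RPS19 and is taken in only by its letters. FAU and RACK1 also encode ribosome components, but their symbols lie outside the rule, so they are given apart.

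The cells were PC-3M-luc, an established human prostate carcinoma line of metastatic origin with a luciferase reporter, and their RNA was sequenced. In the LSD1 RNAi group, cells were transfected with an RNAi reagent against LSD1, and in the control RNAi group with a control RNAi reagent, both with Dharmafect 2, and total RNA was taken 72 h later. Each group has 2 libraries, called biological replicates in the labels, and all of them come from the same line. The design text calls the cells LSD1 knockouts, whereas the sample labels describe RNAi, so the samples are treated as knockdowns. Nothing in the labels says whether the transcripts were captured by their poly(A) tails.

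Ribosomal protein mRNAs are among the most abundant in growing cells, and their proteins are needed in equal numbers in each ribosome, with the acidic stalk proteins as an exception. Many of these mRNAs begin with a cytosine and a run of pyrimidines, the terminal oligopyrimidine or TOP element, through which mTORC1 and LARP1 set how actively they are translated. Surplus ribosomal proteins are degraded, and free RPL5 and RPL11 in complex with 5S rRNA bind the ubiquitin ligase MDM2, which ties ribosome assembly to growth arrest. LSD1, encoded by KDM1A, is a demethylase of histone H3.

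The 30 bases around the annotated transcript start are shown for 9 members that passed the test described below, because they show which of these mRNAs are annotated to begin with a TOP-like run. Each window is read 5′ to 3′ on the gene's strand, 15 bases before the start and 15 from it, from the RefSeq promoter table of GRCh38.p14, and capitals mark the pyrimidine run. The first group was lower in LSD1 knockdown cells and has a run.
RPL39: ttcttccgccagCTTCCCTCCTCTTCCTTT
RPL35: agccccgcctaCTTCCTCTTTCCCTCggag
RPLP1: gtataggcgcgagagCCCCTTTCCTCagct
RPS27: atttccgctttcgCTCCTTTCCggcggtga
The next members were also lower and have no such run at the annotated start.
RPS27L: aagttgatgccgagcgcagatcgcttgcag
RPL13: ggccctgctatcatcccagagtgcattgcg
RPL27: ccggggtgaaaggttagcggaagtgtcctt
The last pair was higher in LSD1 knockdown cells, one with a marked run and one whose pyrimidines begin with T, which is left unmarked.
RPL27A: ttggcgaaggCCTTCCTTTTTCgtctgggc
RPL10A: tgcgcaagacatgctagtctcttttccggt
The windows of RPL39 (chrX:119791616-119791645), RPL35 (chr9:124861943-124861972) and RPS27L (chr15:63157463-63157492) lie on the minus strand. Those of RPLP1 (chr15:69452803-69452832), RPS27 (chr1:153990747-153990776), RPL13 (chr16:89560642-89560671) and RPL27 (chr17:42998404-42998433) lie on the plus strand, as do those of RPL27A (chr11:8682777-8682806) and RPL10A (chr6:35468386-35468415).

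Start windows were found for 67 of the 84 members with enough counts to be tested, and 45 of the 67, or 67.2%, held a TOP-like run. The run was defined as at least 6 pyrimidines beginning with C no more than 5 bases from the annotated start, where that C follows a purine or is itself the start. It stood in 8.57% of all 27305 promoters in the table and in 9.64% of the promoters of tested genes. With any base allowed before the C, 71.6% of the members' windows, 11% of all promoters and 11.7% of the promoters of tested genes held a run, as did both higher members with a window. Under the stricter definition, members with and without a difference between the groups carried a run, in 9 of 12 members that were lower, in 1 of 2 that were higher and in 35 of 53 that did not pass. In the 300 bases around the start, searched on both strands, CCGGAAG, the core bound by ETS factors, stood in 34.3% of the members' promoters, 19.2% of the promoters of tested genes and 10.7% of all promoters. AAGATGGC, a YY1-type site, stood in 10.4%, against 5.3% for tested genes and 3.03% of all promoters. The MYC-type E-box CACGTG was found in 5.97% of the members' promoters, against 10.2% for tested genes and 7.43% of all promoters. For TATAAA the members' share of 8.96% lay above the 5.96% of tested genes and below the 12% of all promoters. GGGCGG, a GC box that can overlap itself in GC-rich sequence, stood in 53.7% of the members' promoters, below the 69.4% of tested genes and above the 44.6% of all promoters. These are matches of letters at annotated starts, which can lie away from the starts used in these cells.

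Read counts assigned to genes were 12040681 and 12831374 in LSD1 knockdown libraries and 12474183 and 12410719 in control libraries, so that 3 counts correspond to 0.234 to 0.249 CPM (counts scaled to the size of each library). KDM1A had 17.8 and 18.1 CPM in LSD1 knockdown cells and 235.1 and 238.1 CPM in control cells, a log2 fold change of -3.72 with a standard error (SE) of 0.0974 (edgeR quasi-likelihood test, adjusted p = 2.32e-24). Counts of replicates did not agree within sampling noise (chi-square of 4.304 a gene for LSD1 knockdown and 5.001 for control), so each library counts once. The prostate luminal markers KLK3 and KLK2 had no count in any library. Epithelial markers summed to 1068 and 1113 CPM in LSD1 knockdown cells and 999 and 1015 CPM in control cells, and 3 of the 5 were higher, KRT8, EPCAM and CDH1. The leukocyte markers PTPRC and CD3E had no count, and LYZ had 1.39 and 1.00 CPM in LSD1 knockdown cells and 0.322 and 0.165 CPM in control cells. LYZ met the filter on low counts only through the knockdown libraries, with 17 and 13 counts against 4 and 2 in control. Its call as higher therefore carries no weight. Fibroblast and endothelial markers summed to 54.9 and 58.4 CPM against 49.8 and 53.3 CPM, with LUM and CDH5 at 0, COL1A2 higher and PECAM1 lower, and the erythroid and liver markers to at most 1.08 CPM with HBB at 0. The part of other cells in the results was not tested.

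Ribosomal protein mRNAs were lower more often than higher in LSD1 knockdown cells, by small amounts. Of 84 tested members, 15 were lower, 3 were higher and 66 did not pass at an adjusted p under 0.05 (edgeR quasi-likelihood test, Benjamini-Hochberg adjustment over all 13247 genes tested). The lower members made up 17.9%, against a background of 17.9% of all tested genes. The higher members made up 3.57%, against 18.2%. So the share that was lower was that of any gene in these libraries, while the share that was higher was below it. Taken in either direction, 21.4% of the members and 36.1% of all tested genes passed. The median log2 fold change of the members was -0.10 (quartiles -0.205 and 0.0121), with 61 values below 0 and 23 above, beside 0.00238 over all tested genes. Both knockdown values lay below both control values for 37 members, or 44%, against 33.4% of all tested genes, and above both for 9, or 10.7%, against 33.7%. Single members moved little, since 67 of 84 had an absolute log2 fold change under 0.25.

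The calls of lower members rested in part on single libraries, and leaving out a library can change calls over all genes too. Of the 15 lower members, control replicate 2 had the highest value for 10 and control replicate 1 for 5, and LSD1 knockdown replicate 1 had the lowest for 11 and replicate 2 for 4. DESeq2 called 8 members lower and 3 higher, limma-voom 19 lower and 5 higher, and with library size as the only scaling 11 were lower and 6 higher. Over all tested genes DESeq2 called 1618 lower and 1564 higher, and library size as the only scaling gave 2091 lower and 2758 higher. Across members, the median log2 ratio to the control mean was -0.0875 and -0.141 in the LSD1 knockdown libraries and -0.0259 and 0.0255 in the control libraries, so both knockdown libraries lay below both control libraries.

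**Figure D1:**
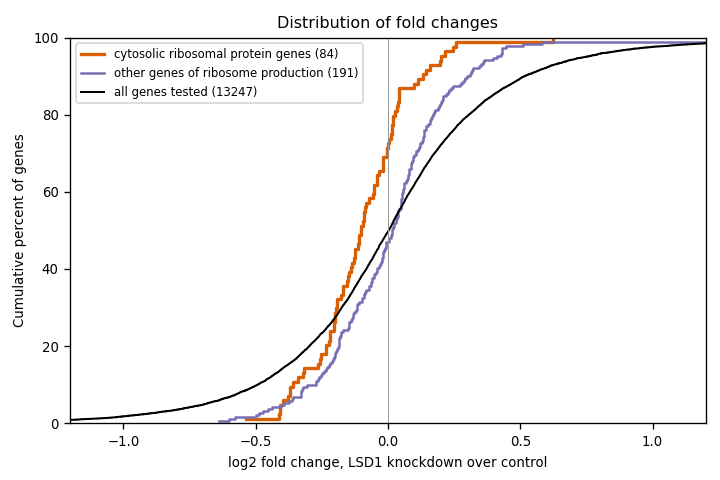
Cumulative percent of genes (vertical axis) by log2 fold change of LSD1 knockdown over control (horizontal axis), for the 84 tested ribosomal protein genes, 191 other tested genes of ribosome production and all 13247 tested genes. The other genes of ribosome production include translation factors and growth regulators. The line of the ribosomal protein genes is steeper and crosses that of all genes. Its lower quartile is -0.205, against -0.228 for all genes, and its upper quartile is 0.0121, against 0.234. Its median is -0.10, against 0.0168 for the other genes of ribosome production and 0.00238 for all genes.

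**Figure D2:**
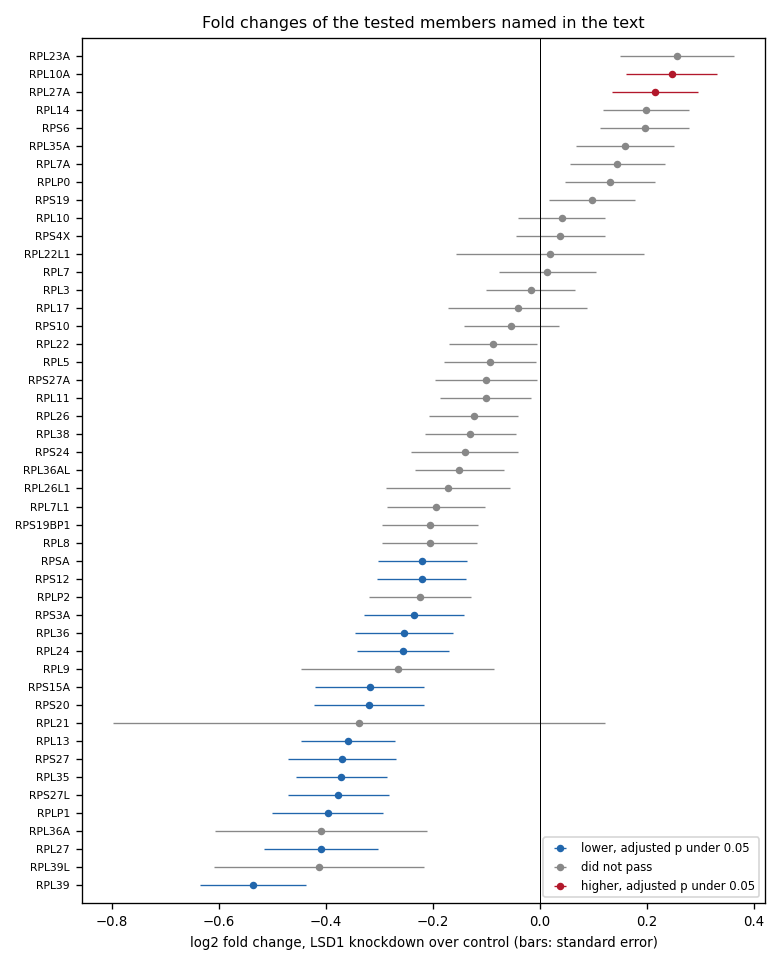
The log2 fold change of each tested member named in the text, LSD1 knockdown over control, with bars of 1 standard error, ordered from the highest at the top. Members that passed as higher are red, those that passed as lower are blue, and those that did not pass, which lie from -0.41 to 0.26, are grey.

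Among large subunit genes, 7 of 46 were lower and 3 higher, with a median log2 fold change of -0.0883. The shares were 15.2% and 6.52%, against 17.9% and 18.2% of all tested genes. RPL39 (NM_001000), a small protein that lines the peptide exit tunnel, had the largest fall among members that passed. It had 62.1 and 81.8 CPM in LSD1 knockdown cells and 109.1 and 99.7 CPM in control cells, a log2 fold change of -0.54 (SE 0.0992, edgeR adjusted p = 6.6e-05), or 68.9% of control. Both knockdown libraries lay below both control libraries, with knockdown replicate 1 the lower. RPL35 (NM_007209), at the tunnel exit where nascent chain factors dock, had 1340 and 1404 CPM in LSD1 knockdown cells and 1835 and 1712 CPM in control cells. Its log2 fold change was -0.37 (SE 0.0852, edgeR adjusted p = 0.000831), and replicates of each group lay close together. RPL13 had 1639 and 1849 CPM in LSD1 knockdown cells against 2277 and 2196 CPM in control cells, a log2 fold change of -0.36 (SE 0.0876, edgeR adjusted p = 0.0015).

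RPL27 had 540.1 and 541 CPM in LSD1 knockdown cells and 582 and 853 CPM in control cells, a log2 fold change of -0.41 (SE 0.106, edgeR adjusted p = 0.00268). The knockdown values were nearly equal while the control values lay far apart, and the call was lost without control replicate 2. RPL24, which forms a bridge between the subunits, had 102.2 and 90.1 CPM in LSD1 knockdown cells against 115.9 and 113.5 CPM in control cells (log2 fold change -0.26, SE 0.0862, edgeR adjusted p = 0.0194). RPL36 had 1486 and 1667 CPM in LSD1 knockdown cells and 1722 and 2036 CPM in control cells (log2 fold change -0.25, SE 0.0917, edgeR adjusted p = 0.0292). For RPL36 the higher knockdown value came close to the lower control value, and the call was lost without control replicate 2, without knockdown replicate 1 and with library size as the only scaling.

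The large subunit also held every member that was higher. RPL10A, the protein of the mobile L1 stalk, had 590.3 and 509.6 CPM in LSD1 knockdown cells and 459 and 467 CPM in control cells (log2 fold change 0.25, SE 0.0847, edgeR adjusted p = 0.0215). RPL27A had 415 and 410.0 CPM in LSD1 knockdown cells and 347 and 363 CPM in control cells, a log2 fold change of 0.22 (SE 0.0802, edgeR adjusted p = 0.0339). Its groups were well apart at 116% of control, but the call was lost when any 1 of the 4 libraries was left out. RPL10A lost its call without control replicate 1 and without knockdown replicate 1.

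The stalk proteins RPLP0, RPLP1 and RPLP2 form the protruding arm of the large subunit that recruits and activates the GTPases of translation. RPLP1, counted among the 7 lower genes above, had 592 and 797 CPM in LSD1 knockdown cells and 822 and 1006 CPM in control cells. Its log2 fold change was -0.40 (SE 0.104, edgeR adjusted p = 0.00295). The spread within both groups was wide, the higher knockdown value lay just under the lower control value, and the call was lost with DESeq2, without control replicate 2 and without knockdown replicate 1. RPLP2, its partner in the stalk dimers, had 661 and 860.1 CPM in LSD1 knockdown cells and 847 and 930.0 CPM in control cells, with overlapping groups and a log2 fold change of -0.22 that did not pass (SE 0.0958, edgeR adjusted p = 0.0657). RPLP0, the base to which the dimers bind, had 894 and 885 CPM in LSD1 knockdown cells and 772 and 851 CPM in control cells, a log2 fold change of 0.13 that did not pass (SE 0.0835, edgeR adjusted p = 0.228). RPLP2 passed with limma-voom, without control replicate 1 and without knockdown replicate 2. The values of the 3 stalk genes thus stood on both sides of control, and the difference between them was not tested.

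Among small subunit genes, 7 of 31 were lower and 0 were higher, with a median log2 fold change of -0.10. The lower share was 22.6%, against 17.9% of all tested genes, of which 18.2% were higher. At an unadjusted p under 0.05, edgeR gave 11 lower and 1 higher, while DESeq2 called 3 lower and 1 higher and limma-voom 9 lower and 1 higher after adjustment. RPS27, a zinc finger protein, had 41.3 and 46.4 CPM in LSD1 knockdown cells and 50.9 and 62.6 CPM in control cells, a log2 fold change of -0.37 (SE 0.102, edgeR adjusted p = 0.00449). RPS20, a protein of the head of the subunit, had 485 and 500.4 CPM in LSD1 knockdown cells and 506 and 724 CPM in control cells (log2 fold change -0.32, SE 0.103, edgeR adjusted p = 0.0149). The gap between the groups for RPS20 was narrow beside the spread of the control libraries. RPS15A had 628 and 527 CPM in LSD1 knockdown cells and 615 and 825 CPM in control cells (log2 fold change -0.32, SE 0.102, edgeR adjusted p = 0.0137). RPS15A was the only one of the 18 members that passed whose groups overlapped. All 3 lost the call without control replicate 2, RPS20 and RPS15A also with DESeq2, and RPS15A also without knockdown replicate 2.

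The other lower small subunit genes differed by less. RPS3A had 59.6 and 51.2 CPM in LSD1 knockdown cells and 63.8 and 66.5 CPM in control cells, at 85.0% of control (edgeR adjusted p = 0.0488). RPS12, whose level in Drosophila is read by cells in comparing their fitness with that of neighbours, had 595 and 638 CPM in LSD1 knockdown cells and 692 and 744 CPM in control cells, at 85.8% (edgeR adjusted p = 0.036). RPSA, which also serves as a laminin receptor, had 163.1 and 169.7 CPM in LSD1 knockdown cells and 182.1 and 205.6 CPM in control cells, at 85.9% (edgeR adjusted p = 0.0372). In these 3 genes both knockdown libraries lay below both control libraries. RPS3A lost its call in 8 of 14 alternatives, RPSA in 7 and RPS12 in 3.

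**Figure D3:**
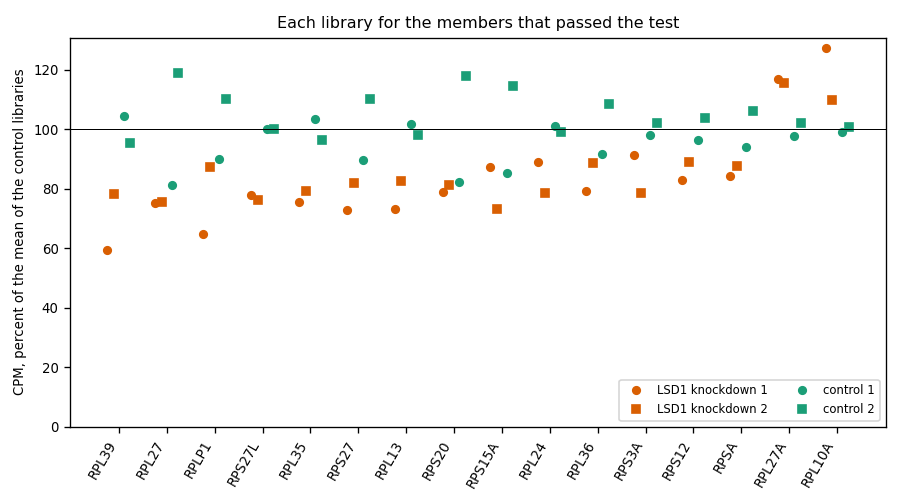
CPM of each library as a percent of the mean of the control libraries (vertical axis) for the members that passed and are named in the text, ordered by fold change. Circles are replicate 1 and squares replicate 2, in orange for LSD1 knockdown and green for control. The control points of RPL27, RPS20 and RPS15A lie far apart, while those of RPS27L, RPL24 and RPL10A lie close together.

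Some paralogs can replace a main member in the ribosome, often in a tissue-specific way. Of 10 paralogs, 6 had enough counts to be tested, and 1 of these, RPS27L, was lower. RPS27L (NM_015920), a copy of RPS27, had 39.3 and 38.4 CPM in LSD1 knockdown cells and 50.5 and 50.4 CPM in control cells, a log2 fold change of -0.38 (SE 0.0945, edgeR adjusted p = 0.00197). The replicates nearly coincided in both groups, and the log2 fold change lay beside the -0.37 of RPS27. RPL39L, a copy of RPL39 known from the testis, had 7.86 and 5.57 CPM in LSD1 knockdown cells and 10.6 and 7.16 CPM in control cells, with overlapping groups and a log2 fold change of -0.41 that did not pass (SE 0.196, edgeR adjusted p = 0.0979). RPL39 and RPL39L were thus both below control on average, with only RPL39 past the test. RPL39L passed without control replicate 2 and without knockdown replicate 1.

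The other pairs gave no call. RPL22 had 518 and 467 CPM in LSD1 knockdown cells and 511 and 534 CPM in control cells, and its paralog RPL22L1 had 9.01 and 6.96 CPM against 7.89 and 7.82 CPM. RPL26 had a log2 fold change of -0.12 and RPL26L1 of -0.17. RPL36A had 6.22 and 4.48 CPM in LSD1 knockdown cells and 6.68 and 7.49 CPM in control cells, while its paralog RPL36AL was far more abundant, with 257 and 229 CPM against 259.8 and 279.6 CPM. RPL36A passed only without knockdown replicate 1. RPL7 and RPL7L1 had log2 fold changes of 0.01 and -0.19, and RPL3, RPL10 and RPS4X had -0.02, 0.04 and 0.04, none of which passed. RPL3L, the paralog of striated muscle, had at most 1 count in a library, and RPL10L, RPS4Y1 and RPS4Y2 had 0. Those 4 were not tested.

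RPL5 and RPL11, which carry 5S rRNA and bind MDM2, did not pass. RPL5 had 2252 and 2086 CPM in LSD1 knockdown cells and 2300 and 2328 CPM in control cells (log2 fold change -0.09, SE 0.0861). RPL11 had 1057 and 1057 CPM in LSD1 knockdown cells and 1063 and 1204 CPM in control cells (log2 fold change -0.10, SE 0.0854). With both genes the knockdown values lay below those of control by amounts close to their standard errors. MDM2 itself had 58.9 and 53.2 CPM in LSD1 knockdown cells and 62.8 and 64.2 CPM in control cells, a log2 fold change of -0.18 that did not pass (SE 0.0915, edgeR adjusted p = 0.122). RPS6, the substrate of the S6 kinases, had 1218 and 1166 CPM in LSD1 knockdown cells and 1038 and 1042 CPM in control cells. Its log2 fold change of 0.20 did not pass with edgeR (SE 0.0829, adjusted p = 0.0622) and passed with DESeq2, with limma-voom and with library size as the only scaling. RPS19, the gene most often mutated in Diamond-Blackfan anaemia, had 383 and 410 CPM in LSD1 knockdown cells and 360.0 and 381 CPM in control cells, a log2 fold change of 0.10 that did not pass (SE 0.0812, edgeR adjusted p = 0.372). RPS27A, made as a fusion with ubiquitin, had 63.1 and 53.4 CPM in LSD1 knockdown cells and 60.7 and 64.1 CPM in control cells, with overlapping groups.

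The 66 members that did not pass had log2 fold changes from -0.41 to 0.26. Among them, the largest positive log2 fold changes were those of RPL23A (0.26), RPL14 (0.20), RPS6, RPL35A (0.16) and RPL7A (0.15), and the lowest adjusted p, that of RPL14, was 0.0513 (edgeR). RPL14 had 392 and 412 CPM in LSD1 knockdown cells and 349.7 and 351 CPM in control cells, with no overlap. RPL23A, which lies beside RPL35 at the tunnel exit, had 32.3 and 30.2 CPM in LSD1 knockdown cells and 26.2 and 26.2 CPM in control cells. The largest negative values without a call were those of RPL39L, RPL36A, RPL21 (-0.34), RPL9 (-0.27) and RPLP2. RPL21 and RPL9 rest on few counts, 0.737 and 0.928 CPM in LSD1 knockdown cells and 1.37 and 0.741 CPM in control cells for RPL21. RPS19BP1 had 59.0 and 63.6 CPM in LSD1 knockdown cells and 69.7 and 71.7 CPM in control cells, a log2 fold change of -0.21 that did not pass (SE 0.0894, edgeR adjusted p = 0.0712). The ribosome components RACK1 and FAU, outside the rule, did not pass either, with log2 fold changes of -0.13 (SE 0.091, edgeR adjusted p = 0.276) and 0.01 (SE 0.0953, edgeR adjusted p = 0.925).

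Members took 5.73% and 5.58% of gene counts in LSD1 knockdown libraries and 5.82% and 6.08% in control libraries. The means were 5.65% ± 0.11 and 5.95% ± 0.183 (SD, n = 2 each), a difference of -0.297 percentage points with an exact permutation p of 0.33 (two-sided), the smallest that 2 libraries against 2 can give. In bulk RNA of a cell population, fewer cells with a transcript and less of it per cell cannot be told apart, and a share of counts does not show the amount of ribosomal protein mRNA per cell.

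Levels differed far more between members than between groups, and 46 of 84 tested members had a mean over 500 CPM. On a scale of CPM per kilobase of the shortest principal coding transcript, averaged over the 4 libraries, RPS24 was highest at 7698, followed by RPL36 at 3848, RPL38 at 3569, RPL35 at 3456 and RPL8 at 2874. The median over the 77 genes of the main set was 708. Of these 5, RPL35 and RPL36 were lower in LSD1 knockdown cells, while RPS24 (log2 fold change -0.14), RPL38 (-0.13) and RPL8 (-0.21) did not pass. The lowest tested members on the same scale were RPL21 at 1.53, RPL22L1 at 3.62, RPS27L at 6.94, RPL9 at 9.65 and RPL39L at 11.95. Per length of the coding sequence alone, RPS24 was again highest, and 3 of the 5 highest members were the same. The low place of RPS27L depends on the length used, since its transcript was taken as 6434 bases. Per kilobase of coding sequence RPS27L stood at 177 CPM, above RPL36A at 19.6.

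Ribosomal protein genes have many processed pseudogenes, near-identical copies to which short reads can map equally well, and the tables do not state how such reads were counted. RefSeq annotates 1966 pseudogenes for the 88 members. The 43 main members with 1 to 20 pseudogenes had a median of 898 CPM per kilobase, the 23 with 21 to 50 a median of 880.3, and the 11 with over 50 a median of 96.6 (range 1.53 to 559). Over the 77 genes Spearman's rho between number of pseudogenes and level was -0.378, across genes that share the same libraries. RPL21, with 137 pseudogenes, had 9 and 12 counts in LSD1 knockdown libraries and 17 and 9 in control libraries, and the pseudogene RPL21P28 had exactly the same counts. Several members that were lower also have many pseudogenes, so their values are uncertain. RPSA has 74 and RPS3A 54, in the group with over 50. RPL39 and RPS15A have 40 each, RPS20 35 and RPS27 30, in the group with 21 to 50. RPS27L has 0, RPL24 has 8, RPL35 has 10, RPL13 and RPL27 have 12 each and RPLP1 has 13. The part of pseudogenes in the fold changes was not tested.

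**Figure D4:**
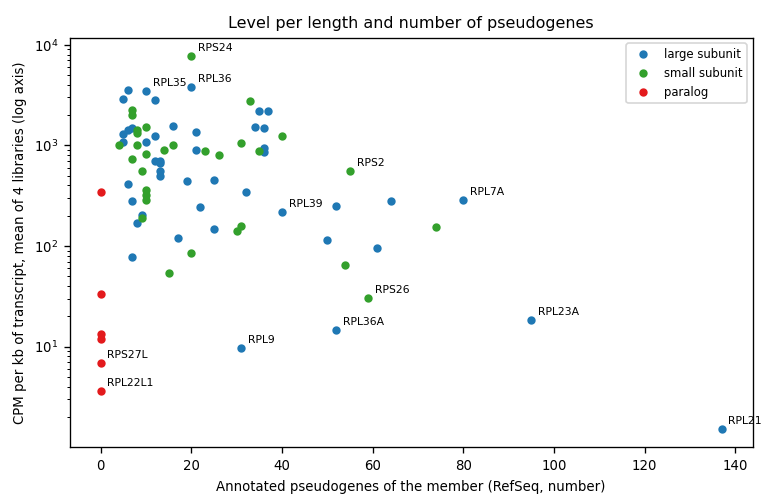
Mean level over the 4 libraries in CPM per kilobase of transcript (vertical log axis) against the number of annotated pseudogenes (horizontal axis), for the 77 main members and the tested paralogs. The points with over 50 pseudogenes lie low, from 1.53 for RPL21 to 559, while RPS24 stands at 7698 with 20 pseudogenes.

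Some members share exons with other genes, and no source states that strand was used in counting. RPL36A overlaps the readthrough gene RPL36A-HNRNPH2 over 333 nucleotides, RPL17 overlaps RPL17-C18orf32 over 544, and RPS10 overlaps RPS10-NUDT3 over 727. Of the members that passed, RPL27A overlaps TRIM66 on the opposite strand over 58 nucleotides and RPL35 overlaps WDR38 over 11. RPL36 overlaps HSD11B1L over 245 and LONP1 over 43. RPS15A, which also passed, overlaps AC138811.2 on the same strand over 218, and no count was available under that name. WDR38 and HSD11B1L had few counts, with means of 5.75 and 25.5 a library, while TRIM66 and LONP1 had means of 376 and 4022. Annotated small nucleolar RNAs lie within the bounds of 28 of the 88 members on the same strand. Introns and exons were not told apart, and SNORA3A shares 98 nucleotides with annotated exons of RPL27A. Such RNAs lie within 6 of the 15 lower members, among them RPL39, RPL13 and RPS12, and 2 of the 3 higher members, RPL27A among them. They also lie within 20 of the 66 that did not pass.

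The call was kept in all 14 alternatives by 3 members, RPL35, RPL39 and RPS27L. All are lower in LSD1 knockdown cells, and both libraries of each group stood apart for each of them. RPL13 lost the call in 1 alternative, without knockdown replicate 1, and RPS27 in 1, without control replicate 2. RPL24 lost it with DESeq2, without control replicate 1 and without knockdown replicate 2, and RPL27 and RPS20 with DESeq2 and without control replicate 2. RPS12 lost it with library size as the only scaling, without control replicate 2 and without knockdown replicate 1.

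Other genes of ribosome production, a group that includes translation factors and growth regulators, passed in both directions at shares below those of all genes. Of 191 tested, 27 were higher and 29 lower, or 14.1% and 15.2%, against 18.2% and 17.9% of all tested genes. Their median log2 fold change was 0.0168. With library size as the only scaling, 36 were higher and 24 lower, and higher calls also outnumbered lower ones over all genes. Of 77 nucleolar and assembly factors, 14 were higher and 13 lower, or 18.2% and 16.9%, close to the shares of all genes. SENP3, a SUMO protease of the nucleolus, had 97.2 and 103.2 CPM in LSD1 knockdown cells and 40.9 and 44.5 CPM in control cells, a log2 fold change of 1.23 (SE 0.0913, edgeR adjusted p = 2.45e-12). SENP3 shares 1511 nucleotides with the readthrough gene SENP3-EIF4A1, so its value is uncertain. HEATR1, of the small subunit processome, and DDX47, an RNA helicase, were higher by 0.58 and 0.51 on the log2 scale. RRP1 (-0.60), EFL1 (-0.64), the GTPase that helps to release eIF6 from the large subunit, and KRR1 (-0.45) were lower.

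RNA polymerase I and its factors gave 2 higher and 3 lower genes of 17, or 11.8% and 17.6%, against 18.2% and 17.9% of all tested genes. RRN3, which makes the polymerase competent to initiate, had a log2 fold change of 0.43 and the largest subunit gene POLR1A of 0.22, while TCOF1 (-0.32), TTF1 (-0.33), the termination factor, and TAF1B (-0.36) were lower. Among 17 chaperones and importers of ribosomal proteins, BCCIP (-0.32) and IPO9 (-0.26), or 11.8%, were lower and 0 were higher. At an unadjusted p under 0.05 edgeR gave 1 higher there, and DESeq2 and limma-voom called 0 higher. Of 19 elongation factors and other TOP mRNAs, 2 were higher, EIF4B (0.40) and PABPC1 (0.31), and 2 lower, VIM (-0.33) and EEF1G (-0.21). Each direction made up 10.5% of that list. The main elongation factor genes EEF1A1 and EEF2, named after their values were seen, had log2 fold changes of 0.02 and 0.09 and did not pass. In this list 15 of 19 log2 fold changes were above 0, with a median of 0.104, and both knockdown values lay above both control values for 10 genes (52.6%) and below them for 2 (10.5%), beside 33.7% and 33.4% of all tested genes. With library size as the only scaling, 4 were higher and 1 lower.

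Of 35 initiation factor genes, 6 were higher and 4 lower (8 and 3 with library size as the only scaling). The shares were 17.1% and 11.4%, against 18.2% and 17.9% of all tested genes. EIF3I had 347 and 348 CPM in LSD1 knockdown cells and 145.6 and 143.2 CPM in control cells, a log2 fold change of 1.27 (SE 0.081, edgeR adjusted p = 9.1e-14), with the groups far apart. EIF4G2 (0.43) and EIF5A (0.41) were also higher, and EIF1AX (-0.49), EIF2S1 (-0.44) and EIF5B (-0.25) were lower. Among 24 tested genes of growth control, 4 were higher and 5 lower (5 and 3 with library size as the only scaling), with shares of 16.7% and 20.8%. LARP1, which binds TOP mRNAs, had 353 and 394 CPM in LSD1 knockdown cells and 297 and 303 CPM in control cells (log2 fold change 0.32, SE 0.082, edgeR adjusted p = 0.00259). MXD4 (0.43), an antagonist of MYC, and DEPTOR (0.45), an inhibitor of mTOR, were higher. The translation repressors EIF4EBP2 (-0.58) and EIF4EBP1 (-0.36) and the mTORC1 inhibitor DDIT4 (-0.47) were lower. MYC, named after its values were seen, had a log2 fold change of -0.19 that did not pass (SE 0.0873, edgeR adjusted p = 0.0932).

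**Figure D5:**
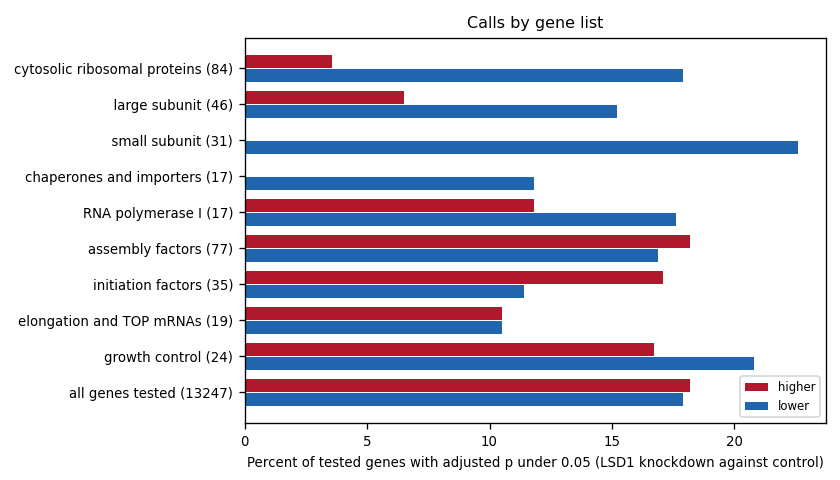
Percent of tested genes in each list with an edgeR adjusted p under 0.05, higher (red) or lower (blue) in LSD1 knockdown cells than in control cells, with the number tested in brackets. The ribosomal protein genes stand at 3.57% higher and 17.9% lower, the assembly factors at 18.2% and 16.9%, and all tested genes at 18.2% and 17.9%.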

How the data were processed

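The tables as deposited give raw read counts for RefSeq transcripts and no header. That unit was read from the values, which are whole numbers with unequal library totals. The submitters' processing notes name TopHat2, HOMER, edgeR, DESeq 1.8.3 and hg19 without roles. For multiply mapped reads, strand and library kit, the method is not given in the sources used here. Of 38767 rows, 37205 matched a RefSeq symbol and 472 a GENCODE one, and the unmatched 1090 rows, with 1.38% to 1.40% of the counts, were left out. For 7517 symbols with several rows, the row with the highest mean was used. Totals over all rows were 22855909 and 24348184 in LSD1 knockdown libraries and 23730737 and 23565034 in control libraries. Floors of 3 counts cover counting error only.

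Genes were kept by filterByExpr with minimum 10 and total 15, scaled by TMM and tested in edgeR 4.0.16 (R 4.3.3) by its quasi-likelihood test on group alone. Benjamini-Hochberg adjustment ran over 13247 genes at 0.05. CPM uses TMM-scaled library sizes. With 2 libraries a group, the p-values draw on a spread pooled over genes, and the labels do not say how the biological replicates were separated. Lengths come from GENCODE transcripts of GRCh38, and no coordinates of hg19 are given. Start windows come from RefSeq promoters of GRCh38.p14.

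The members and gene lists were chosen with earlier results of these data known. Values of certain genes that the rule covers are not reported here. Named genes were KDM1A, every member that passed, paralog pairs, the 5 highest and 5 lowest per transcript length, the 5 largest changes in each direction that did not pass, 9 members of known role, untested members, and up to 3 genes per other list and direction. Alternatives were DESeq2 size factors, library size only, no filter, at least 1 CPM in 2 libraries, limma-voom (limma 3.58.1), the DESeq2 1.42.0 Wald test, sums over rows, a replicate block and leaving out each library. Unmatched rows kept and TMM without the members were added after the data were seen. In simulated counts for LSD1 knockdown against control (13110 genes), 10% of 50 genes with a 1.2-fold change were called, 80% of 50 at 1.5-fold and 92% of 50 at 2-fold, with 4.88% false calls among 123.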

Additional observations from a re-analysis of the deposited data

Results flagged for a closer look

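Among the genes that the rule leaves out, a pseudogene, a readthrough gene and kinases of the RPS6K family differed between the groups. The pseudogene RPL23AP7 had 23.8 ± 1.25 CPM in LSD1 knockdown cells and 16.4 ± 1.41 CPM in control cells (SD, n = 2 each). Its log2 fold change was 0.534 (SE 0.123, edgeR adjusted p = 0.000831), beside 0.26 for RPL23A itself, which did not pass. The readthrough gene RPL36A-HNRNPH2 had 96.7 ± 5.67 CPM in LSD1 knockdown cells and 67.1 ± 4.48 CPM in control cells (SD, n = 2 each). Its log2 fold change was 0.526 (SE 0.0889, edgeR adjusted p = 1.81e-05). HNRNPH2, whose exons it contains, had 96.8 CPM in LSD1 knockdown cells and 63.2 CPM in control cells on average, while RPL36A had at most 7.49 CPM in any library. RPS6KA6 had 76.0 ± 0.729 CPM in LSD1 knockdown cells and 35.99 ± 1.02 CPM in control cells (SD, n = 2 each). Its log2 fold change was 1.079 (SE 0.0928, edgeR adjusted p = 6.08e-11). Of the other RPS6K genes, RPS6KC1 (log2 fold change -0.38, edgeR adjusted p = 0.00258) and RPS6KA5 (log2 fold change -0.37, edgeR adjusted p = 0.0202) were lower.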

How the results depend on the processing

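The median log2 fold change of the members was below 0 in every alternative run, and the median of all tested genes lay between -0.0133 and 0.0373. With 1 library left out, the median of the members ran from -0.146 (without LSD1 knockdown replicate 1) to -0.0808, the number of higher members from 2 to 3 and that of lower members from 6 to 21. Among the other genes of ribosome production those counts ran from 22 to 23 higher and from 19 (without LSD1 knockdown replicate 2) to 29 lower. In these fits the lone library of a group is assumed to vary like the others. With library size as the only scaling, 6 members were higher and 11 lower, other genes of ribosome production were 36 higher and 24 lower, and the split over all genes was 2758 higher and 2091 lower, against 2413 and 2375. DESeq2 called 8 members lower, with 1564 higher and 1618 lower over all genes, and limma-voom called 19 members lower and 5 higher. Replicate numbers do not pair the samples by any label. With the replicate number as a block, 6 members were higher and 23 lower, and deviations of same-numbered libraries correlated at 0.0676 over all tested genes and 0.292 over the members. No member that passed changed direction. Of those that did not pass, RPL3, at -0.02, was at 0.0179 with library size only, and RPL3, RPL7, RPL10, RPL22L1, RPS4X and RPS27A changed sign when 1 library was left out. Calls of the 18 members that passed were lost 47 times over the 14 alternatives, and the cause was not tested. The difference in share of counts was -0.335 percentage points with summed rows and -0.152 with all rows as denominator. With all rows as denominator the shares themselves were smaller, at 3.02% and 2.94% in LSD1 knockdown libraries and 3.06% and 3.20% in control libraries. GC content and the difference between LSD1 knockdown replicates had a Spearman's rho of 0.405 over the members and 0.453 over all genes. Changes near 1.2-fold, the size seen in many members, were mostly missed in the simulation. It changed a far smaller share of genes than the 36.1% that passed in these data. Those genes were drawn from many levels, so the share recovered does not carry over to the members. At about that size RPL24 passed and RPL23A did not, so a member that did not pass may still differ.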
